A study of Mus musculus with 12 samples.

Results

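The 10 genes described here are targets of the transcription factor p53, namely Cdkn1a, Mdm2, Ccng1, Trp53inp1, Phlda3, Btg2, Gadd45a, Gadd45b, Gadd45g and Plk2. They were chosen by name, and each was found once, by its Ensembl identifier, among the 55414 genes of the count table. All 10 passed the filter on low counts, as did 13857 genes in all. The RNA came from the livers of 12 female C57Bl/6J mice of 8 to 12 weeks, with 3 mice in each of 4 groups. Each mouse received an intraperitoneal injection of 0.9% NaCl or of 300 mg/kg FeSO4, and after 6 h a second one of PBS or of 10 mg/kg dexamethasone (DEX), a synthetic glucocorticoid. The groups are NaCl/PBS, NaCl/DEX, FeSO4/PBS and FeSO4/DEX, and all livers were taken 2 h after the second and 8 h after the first injection. The study used this FeSO4 dose to model acute iron overload that ends in lethal shock.

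p53, encoded by Trp53, is held at a low level by MDM2, the ubiquitin ligase that marks it for degradation, and by the related MDM4. DNA damage, oxidative stress and other insults release it, and it then binds response elements near its target genes, many of which stop the cell cycle, repair DNA or kill the cell. Mdm2 is itself a target, which closes a feedback loop. Several of these genes also answer to other signals, and the GADD45 genes and Btg2 are known as rapid stress-responsive genes. The glucocorticoid receptor (GR), through which DEX acts, binds its own response element. Hepatocytes, which seldom divide, make up most of the mass of the liver.

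The p53 response element is built from a pair of half-sites of 10 bases, each with a core CNNG, in which both N are A or T, between 3 purines and 3 pyrimidines. It was searched on both strands of GRCm39 within 3000 bases on either side of the annotated gene start, in 13819 tested genes. These sequences are shown because they are the letters through which p53 can reach the genes, and the cores are in capitals. Each is printed 5′ to 3′ on the strand of its gene, and distances run from the gene start to the centre of the match. With both half-sites complete and a spacer of up to 13 bases, 2.0% of the windows and 2 of the 10 members held a match. At Trp53inp1 it lay on chr4:11155112-11155132, at -1290 from the gene start (negative is upstream). At Cdkn1a it lay on chr17:29309880-29309911, with a spacer of 12 bases.
Trp53inp1: aaaCATGtccaggaCTAGcct
Cdkn1a, with spacer: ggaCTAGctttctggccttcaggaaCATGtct
Without a spacer, 0.195% of the windows and 0 members matched. When up to 2 of the flanking purines and pyrimidines could differ, 4.07% of the windows and 3 members matched, namely Cdkn1a, Ccng1 and Plk2. The Cdkn1a match, on chr17:29309902-29309921, was at -24, had 1 such difference and shared 10 bases with the match that has a spacer. That of Ccng1, on chr11:40645763-40645782, lay in an intron at 376 and had 1 difference. Plk2 had a pair of matches with 2 differences each, on chr13:110529416-110529435 and chr13:110530928-110530947, at -1590 and -78.
Cdkn1a, no spacer: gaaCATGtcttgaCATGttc
Ccng1: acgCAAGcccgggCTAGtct
Plk2, distal: caaCATGcccgggCTTGcat
Plk2, proximal: gatCTTGcttagaCTTGttg
With up to 1 mismatch in the C or G of the cores and a spacer of up to 13 bases, 15.0% of the windows and 3 members (Cdkn1a, Mdm2 and Trp53inp1) matched. This search also holds the complete matches of Cdkn1a and Trp53inp1, so among the members it added only Mdm2. A match is a description of letters, not of binding, and an absent one says only that these letters were not in the window.

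Since DEX was the second treatment, the same windows were searched for the GR element GNACANNNTGTNC, in which N is any base. This search and the one with flanking differences were chosen with the results already known. The element was present in 9.43% of the windows and at 3 of the 10 members. At Phlda3 it lay on chr1:135691533-135691545, at -2270, and at Btg2 on chr1:134013942-134013954, in an exon at 1085. At Gadd45g it lay on chr13:52002181-52002193, in an exon at 1473. The inner letters ACA and TGT of the element are in capitals, and its fixed outer G and C are in lower case.
Phlda3: ggACAttcTGTcc
Btg2: gaACAgaaTGTcc
Gadd45g: ggACAcctTGTtc

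**Figure D1:**
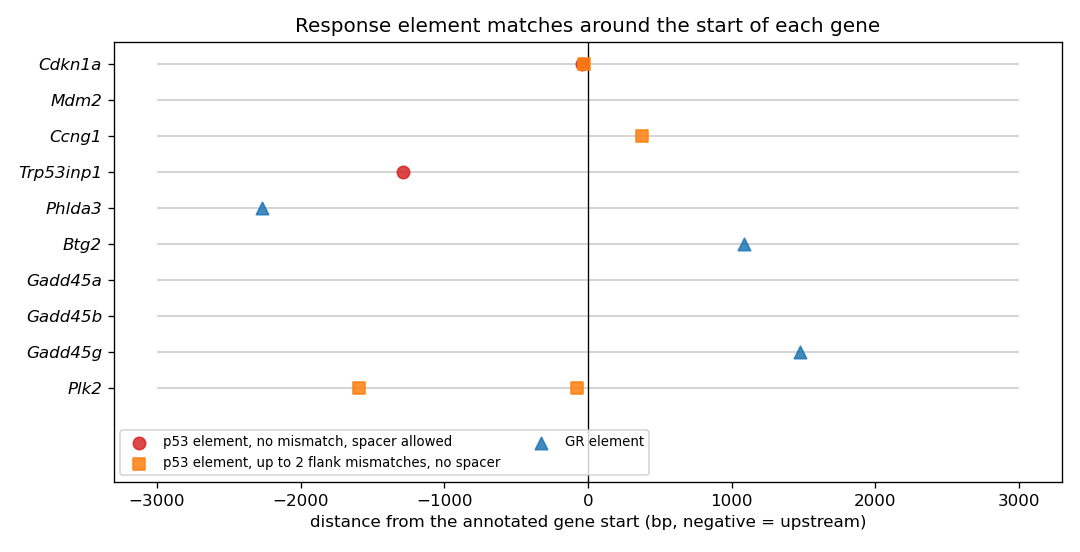
Positions of response element matches at the 10 genes. The x axis gives the distance from the annotated gene start in bases (negative is upstream) and each row is a gene. Red circles are p53 elements with no mismatch and a spacer allowed, orange squares p53 elements without spacer and with up to 2 flank mismatches, and blue triangles GR elements. Mdm2, Gadd45a and Gadd45b have no symbol, and the Cdkn1a matches are centred within 40 bases of the start.

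Between 16335651 and 23827340 reads were counted on genes per mouse, with a median of 19602514. Normalized counts are reads scaled by edgeR's TMM factors, which were 1.14 to 1.16 in NaCl/PBS, 1.02 to 1.06 in NaCl/DEX and 0.871 to 0.952 in the FeSO4 mice. The label liver was matched by hepatocyte markers, whose summed normalized counts were 1970000 to 2350000 in NaCl/PBS mice and 2520000 to 2980000 in the other groups, above every control. FeSO4/PBS mouse 1 stood apart from the other mice of its group. Its counts differed from theirs by a chi-square of 65.7 and 83.9 per gene, against 16.8 to 34.3 for the other pairs of mice in any group. Nothing in the sources says that libraries were pooled, and each was taken as 1 mouse.

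The comparison of FeSO4/PBS with NaCl/PBS mice gives the change of these genes after iron overload. The study reported that this FeSO4 dose also raised serum corticosterone, an endogenous glucocorticoid. The part of this hormone in the changes after FeSO4, and in the comparisons with DEX, was not tested. In the FeSO4/PBS livers 7 of the 10 members were upregulated, 1 (Ccng1) was downregulated, and Phlda3 and Plk2 did not pass the test. The 7 were Cdkn1a, Gadd45b, Gadd45a, Gadd45g, Btg2, Trp53inp1 and Mdm2, in order of their LFC (log2 fold change). Of all genes tested, 27.2% were higher and 27.3% lower at the same threshold, an edgeR FDR of 0.05 or less with no minimum LFC. The members' median LFC was 2.704, and that of all genes -0.01. With scaling by library size alone, the median of all genes was -0.34, 16.5% of genes were higher and 42.1% lower, and the members' counts were again 7 and 1. In bulk liver RNA, fewer cells of a type and less RNA per cell cannot be told apart.

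Cdkn1a encodes p21, an inhibitor of cyclin-dependent kinases (CDKs) that arrests the cell cycle. It lies on chr17:29309936-29319701 (GRCm39, plus strand; ENSMUSG00000023067), with its p53 element matches just before the start. Its normalized counts were 39.6, 77.6 and 53.3 in NaCl/PBS mice against 9851, 8603 and 9167 after FeSO4. The groups were far apart, and the FeSO4/PBS mice differed little among themselves, with a coefficient of variation of 6.79%. The LFC was 7.35 (SE 0.23, edgeR FDR 3.5e-10), a 163-fold rise with a 95% interval of 115 to 232, and 21 genes had a larger LFC. The antisense gene Dino, which overlaps Cdkn1a on the other strand, had 0 to 16 reads in any library.

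**Figure D2:**
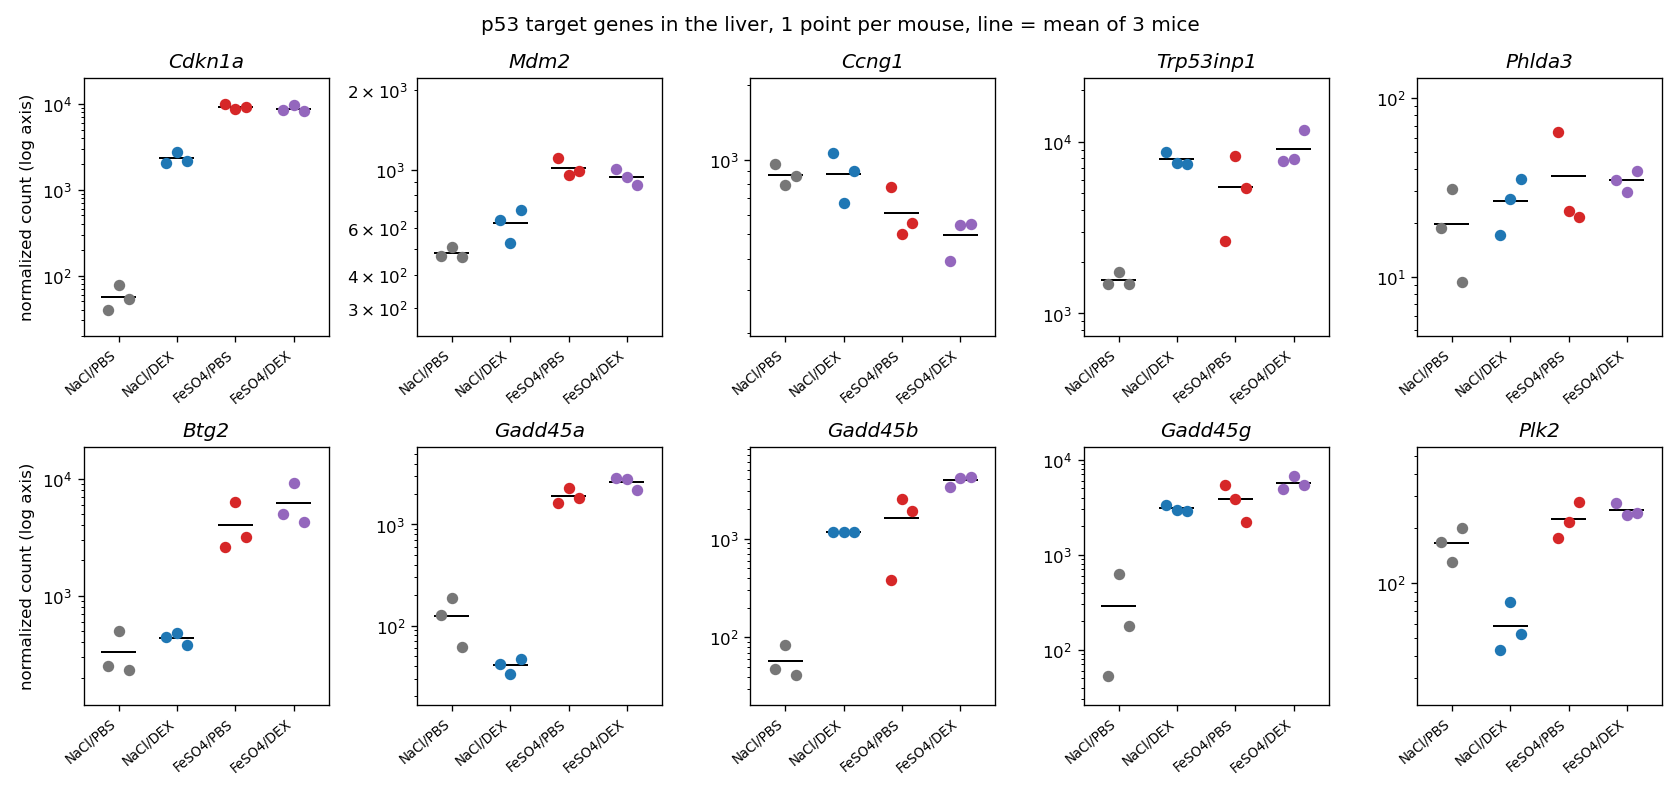
Normalized counts of the 10 genes in the 12 livers. Each panel is a gene with its own log axis, each point is a mouse, the 4 groups stand on the x axis, and the line is the mean of 3 mice. Cdkn1a is below 80 in NaCl/PBS, between 2020 and 2765 in NaCl/DEX and at least 8176 in both FeSO4 groups, whereas Gadd45a and Plk2 have their lowest values in NaCl/DEX.

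The GADD45 genes encode small proteins that bind stress kinases, CDK1 and the replication factor PCNA. All of them rose after FeSO4. Gadd45a (chr6:67012070-67014441, minus strand) had 127, 189 and 60.9 normalized counts in NaCl/PBS and 1628, 2277 and 1842 in FeSO4/PBS mice. Its FeSO4/PBS mice were close together and well above every control, with an LFC of 3.94 (SE 0.29, edgeR FDR 1.7e-07). Gadd45b (chr10:80764523-80768038, plus strand) had 48.2, 84.2 and 41.5 against 383, 2521 and 1908. Here FeSO4/PBS mouse 1 was low, though still above the controls, and the LFC of 4.80 (SE 0.53, edgeR FDR 5.5e-06) was 5.28 without it. Gadd45g (chr13:52000714-52002508, plus strand) had 52.5, 625 and 179 against 5403, 3865 and 2208. In this gene the controls were spread more than 10-fold, and NaCl/PBS mouse 2 was the high one. Its LFC of 3.76 (SE 0.61, edgeR FDR 0.00015) became 5.07 without that mouse.

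Btg2, an antiproliferative cofactor of mRNA deadenylation, lies on chr1:134002908-134015033 on the minus strand. It had 253, 501 and 234 normalized counts in NaCl/PBS and 2623, 6330 and 3182 in FeSO4/PBS mice. The highest control was thus well below the lowest FeSO4/PBS mouse, and the LFC was 3.62 (SE 0.39, edgeR FDR 4.6e-06). Trp53inp1, which encodes a stress protein that promotes cell death and autophagy, lies on chr4:11156412-11175230 on the plus strand. Its counts of 1477, 1750 and 1490 rose to 2650, 8213 and 5411, with an LFC of 1.79 (SE 0.30, edgeR FDR 0.00019). FeSO4/PBS mouse 1 was again the low one, and the LFC was 2.12 without it. Mdm2 (chr10:117524780-117546730, minus strand) rose from 473, 511 and 469 to 1112, 952 and 993. This rise was small next to that of Cdkn1a but even, with an LFC of 1.07 (SE 0.12, edgeR FDR 5.7e-06), or 2.1-fold (95% interval 1.76 to 2.51).

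Ccng1, which encodes cyclin G1, a partner of a phosphatase that acts on MDM2, was the member that fell. It lies on chr11:40639377-40646148 on the minus strand. Its normalized counts were 957, 794 and 862 in NaCl/PBS and 776, 504 and 557 in FeSO4/PBS mice. The groups did not overlap, but the highest FeSO4/PBS mouse nearly reached the lowest control. The LFC was -0.51 (SE 0.19, edgeR FDR 0.038). It no longer passed when any of 4 mice was left out, namely mouse 1 (edgeR FDR 0.12) or 3 (0.07) of NaCl/PBS, or mouse 2 (0.14) or 3 (0.11) of FeSO4/PBS. Nudcd2 overlaps Ccng1 on the other strand and had 232 to 530 reads, and which strand column was kept is not given in the sources used here.

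The remaining members did not pass the test after FeSO4. Phlda3, an inhibitor of AKT signaling (chr1:135693809-135697686, plus strand), had the fewest counts of the 10, at 18.7, 30.9 and 9.31 in NaCl/PBS and 64.5, 23.4 and 21.7 in FeSO4/PBS mice. One high FeSO4/PBS mouse set its mean, and the LFC of 0.92 (95% interval -0.12 to 1.95, edgeR FDR 0.12) was 0.22 without that mouse, number 1. Leaving out NaCl/PBS mouse 2 gave 1.37 (edgeR FDR 0.045). Plk2, a kinase of the polo family that is induced by stress (chr13:110531015-110537379, plus strand), had 168, 131 and 200 against 177, 218 and 279. Its groups overlapped, with an LFC of 0.43 (95% interval -0.04 to 0.90, edgeR FDR 0.11), which was 0.58 (edgeR FDR 0.043) without FeSO4/PBS mouse 1. Without that mouse 8 members were called higher and 1 lower. Over all genes, fits with single mice left out called 3298 to 3807 higher and 3329 to 3815 lower, against 3770 and 3783 with all mice. In each alternative processing the 7 upregulated members kept their call.

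The comparison of NaCl/DEX with NaCl/PBS mice gives the response to DEX without iron. It uses the same 3 controls as the FeSO4 comparison, so the changes in both are not independent. DEX upregulated 4 members (Cdkn1a, Gadd45b, Gadd45g and Trp53inp1) and downregulated 2 (Gadd45a and Plk2), while Mdm2, Ccng1, Phlda3 and Btg2 did not pass the test. Of all genes, 6.5% were higher and 7.15% lower. With library size alone these shares were 4.46% and 12.8%, and the members' counts were again 4 and 2. The members' median LFC was 0.43, against -0.03 over all genes.

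Cdkn1a rose from 39.6, 77.6 and 53.3 normalized counts to 2020, 2765 and 2147 within 2 h of DEX. The LFC was 5.36 (SE 0.22, edgeR FDR 9.7e-09), 41-fold with a 95% interval of 29.7 to 56.7, and only 11 tested genes had a larger one. The NaCl/DEX mice lay between the NaCl/PBS and the FeSO4/PBS mice and overlapped neither. The windows of Cdkn1a, Gadd45b and Trp53inp1 held no GR element match, which says only that these letters were absent. That of Gadd45g held a match, as did those of Phlda3 and Btg2, which were not called. Gadd45b rose from 48.2, 84.2 and 41.5 to 1181, 1156 and 1163, and the 3 DEX mice were nearly the same. Its LFC was 4.34 (SE 0.53, edgeR FDR 8.2e-05). Gadd45g rose from 52.5, 625 and 179 to 3347, 2976 and 2904, with an LFC of 3.44 (SE 0.60, edgeR FDR 0.0014), and 4.76 without the high NaCl/PBS mouse 2.

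Trp53inp1 had 8731, 7542 and 7399 normalized counts in NaCl/DEX mice, all far above the controls at 1477, 1750 and 1490. The LFC was 2.33 (SE 0.30, edgeR FDR 0.00014). Unlike the other GADD45 genes, Gadd45a fell, from 127, 189 and 60.9 to 41.9, 32.9 and 46.3. No NaCl/DEX mouse reached the lowest control, and the LFC was -1.63 (SE 0.33, edgeR FDR 0.0042). E230016M11Rik overlaps Gadd45a on the other strand and had 5 to 99 reads, where Gadd45a had 39, 35 and 46 reads in NaCl/DEX mice. Which strand column was kept is not given, a limit that holds for every comparison of Gadd45a. Plk2 fell from 168, 131 and 200 to 42.9, 79 and 52.4. The groups were apart here too, with an LFC of -1.51 (SE 0.24, edgeR FDR 0.00073).

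Mdm2 was close to the threshold, with 644, 529 and 705 normalized counts in NaCl/DEX mice against 473, 511 and 469. All 3 DEX mice lay above the controls, and the LFC was 0.37 (SE 0.12, edgeR FDR 0.055). DESeq2 called it (adjusted p = 0.024), as did edgeR with DESeq2's size factors (edgeR FDR 0.042), a fit of these 6 libraries alone (0.039), and fits without NaCl/DEX mouse 2 (0.023) or FeSO4/PBS mouse 1 (0.028). Btg2 had 445, 483 and 378 against 253, 501 and 234, which overlapped, with an LFC of 0.41 (95% interval -0.38 to 1.195, edgeR FDR 0.53). For Ccng1 the LFC was 0.01 (95% interval -0.40 to 0.42, edgeR FDR 0.98), and for Phlda3 0.45 (95% interval -0.60 to 1.5, edgeR FDR 0.61). The 6 called members kept their call in each alternative processing.

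**Figure D3:**
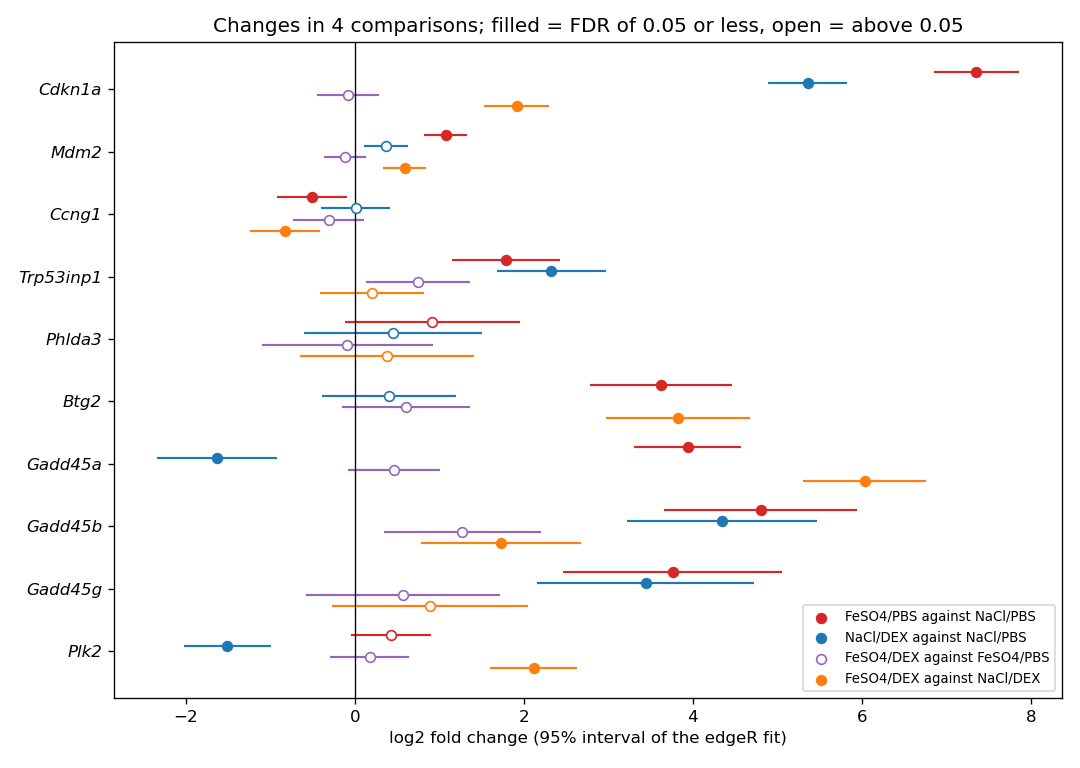
LFC of the 10 genes in 4 comparisons. The x axis is the log2 fold change with its 95% interval from the edgeR fit, each row is a gene, and colors mark the comparisons. Filled points have an edgeR FDR of 0.05 or less and open points do not. After DEX in NaCl mice, Cdkn1a (5.36), Gadd45b (4.34) and Gadd45g (3.44) lie far to the right and Gadd45a (-1.63) and Plk2 (-1.51) to the left, and every point of DEX in FeSO4 mice is open.

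In mice that had first received FeSO4, the effect of DEX was taken from FeSO4/DEX against FeSO4/PBS. By edgeR 0 of the 10 members were called in either direction, as were 0 of the 13857 genes (0% higher and 0% lower). At an unadjusted p under 0.05 there were 900 genes, and DESeq2 called 5 genes higher and 4 lower, with 0 members among them. Cdkn1a had 9851, 8603 and 9167 normalized counts in FeSO4/PBS and 8435, 9544 and 8176 in FeSO4/DEX mice. The groups overlapped in part, with 2 of the 3 FeSO4/DEX mice below the lowest FeSO4/PBS mouse and the other one among them. The LFC was -0.08 (95% interval -0.45 to 0.29, edgeR FDR 0.95), so that the interval reaches at most a 1.22-fold rise. Mdm2 had 1112, 952 and 993 against 1011, 942 and 873, an LFC of -0.11 (95% interval -0.37 to 0.14, edgeR FDR 0.88).

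The spread between mice left more room in other members. Gadd45b had 383, 2521 and 1908 normalized counts in FeSO4/PBS and 3358, 4090 and 4188 in FeSO4/DEX mice. It was the member whose groups did not overlap. Of all genes, 4.45% had every FeSO4/DEX mouse above every FeSO4/PBS mouse, and 4.85% had every one below. The LFC of Gadd45b was 1.27 (95% interval 0.34 to 2.21, edgeR FDR 0.71, unadjusted p = 0.011 in edgeR), or 0.79 without FeSO4/PBS mouse 1. Trp53inp1 had 2650, 8213 and 5411 against 7778, 7899 and 11666. These overlapped, with an LFC of 0.75 (95% interval 0.13 to 1.37, edgeR FDR 0.73, unadjusted p = 0.021 in edgeR), or 0.40 without that mouse. The LFCs of Btg2 (0.61), Gadd45g (0.57), Gadd45a (0.46) and Plk2 (0.18) were above 0 and those of Ccng1 (-0.31) and Phlda3 (-0.09) below, each with a 95% interval that holds 0. Without any filter on low counts, edgeR called 4 members higher, namely Gadd45b, Trp53inp1, Btg2 and Gadd45g, beside 99 genes higher and 71 lower in all. In that fit of 25013 genes the prior degrees of freedom were infinite, against 5.93 in the main one, so that no gene's own spread entered.

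Whether DEX acted differently in FeSO4 and NaCl mice was tested as an interaction, the DEX response in FeSO4 mice minus that in NaCl mice. The test called 6 of the 10 members, 2 higher and 4 lower, against 2.99% and 3.2% of all genes. With library size alone, 4.15% of genes were higher and 2.36% lower, and 2 and 3 members. The responses of Cdkn1a, Gadd45b, Gadd45g and Trp53inp1 were smaller in FeSO4 mice. The difference was -5.44 for Cdkn1a (SE 0.27, edgeR FDR 1.6e-07), -3.07 for Gadd45b (SE 0.66, edgeR FDR 0.013), -2.87 for Gadd45g (SE 0.78, edgeR FDR 0.044) and -1.58 for Trp53inp1 (SE 0.41, edgeR FDR 0.036). These 4 genes were already higher after FeSO4 without DEX. In the FeSO4/PBS mice Cdkn1a stood above every NaCl/DEX mouse, but the others did not. Gadd45b ran from 383 to 2520 in FeSO4/PBS against 1160 to 1180 in NaCl/DEX mice, and Gadd45g from 2210 to 5400 against 2900 to 3350. Trp53inp1 ran from 2650 to 8210 against 7400 to 8730. Whether the level after FeSO4 bears on the smaller DEX response was not tested.

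For Gadd45a and Plk2, which DEX lowered in NaCl mice, the difference was positive. It was 2.09 for Gadd45a (SE 0.42, edgeR FDR 0.0087) and 1.68 for Plk2 (SE 0.33, edgeR FDR 0.0074). In FeSO4/DEX mice Gadd45a had 2888, 2832 and 2199 normalized counts and Plk2 277, 238 and 244, none of them near the NaCl/DEX mice. Mdm2 (-0.48, edgeR FDR 0.11), Btg2 (0.20, edgeR FDR 0.87), Ccng1 (-0.32, edgeR FDR 0.56) and Phlda3 (-0.54, edgeR FDR 0.71) were not called. The calls of Cdkn1a, Gadd45a, Gadd45b and Plk2 were kept in each alternative. Those of Gadd45g and Trp53inp1 were each lost when any of 9 of the 12 mice was left out, and that of Trp53inp1 with library size alone (edgeR FDR 0.051).

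FeSO4/DEX was also compared with NaCl/DEX, that is, the effect of iron in mice that all had received DEX. Here 6 members were higher (Gadd45a, Btg2, Plk2, Cdkn1a, Gadd45b and Mdm2) and Ccng1 was lower, against 22.4% and 20.9% of all genes. These shares were 15.5% and 29.9% with library size alone, again with 6 and 1 members. Gadd45a rose most of the 10, from 41.9, 32.9 and 46.3 in NaCl/DEX to 2888, 2832 and 2199 in FeSO4/DEX mice. The LFC was 6.03 (SE 0.34, edgeR FDR 4.3e-08), 65.4-fold with a 95% interval of 39.5 to 108. The difference of this LFC from the one without DEX is the interaction value of 2.09 given above.

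Btg2 rose from 445, 483 and 378 to 4958, 9229 and 4301 in this comparison, an LFC of 3.82 (SE 0.40, edgeR FDR 4.7e-06). Plk2 rose from 42.9, 79 and 52.4 to 277, 238 and 244, an LFC of 2.12 (SE 0.24, edgeR FDR 1e-05), which exceeded its LFC without DEX by the interaction value of 1.68. Cdkn1a had an LFC of 1.92 (SE 0.18, edgeR FDR 1.9e-06), Gadd45b of 1.73 (SE 0.44, edgeR FDR 0.0058) and Mdm2 of 0.59 (SE 0.12, edgeR FDR 0.0012). Ccng1 fell from 1064, 670 and 898 to 391, 545 and 552, with an LFC of -0.83 (SE 0.20, edgeR FDR 0.0036). Gadd45g had 3347, 2976 and 2904 against 4896, 6753 and 5441, apart but not called, with an LFC of 0.89 (95% interval -0.27 to 2.05, edgeR FDR 0.20). A fit of these 6 libraries alone called it (edgeR FDR 0.00035), as did one without a filter on low counts (1.8e-08). For Trp53inp1 (0.21, edgeR FDR 0.59) and Phlda3 (0.38, edgeR FDR 0.55) the groups overlapped.

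Per kilobase of exon, the order of the members changed with treatment. The length was the union of all annotated exons of a gene, 6045 bases for Cdkn1a and 1177 for Gadd45g. Where the transcripts in the liver are shorter than this union, the level per kb is understated. The order between genes and the ranks thus depend on this choice of length. In NaCl/PBS livers Gadd45g (242 normalized counts per kb), Trp53inp1 (214) and Ccng1 (198) were the most abundant, while Cdkn1a (9.4) and Phlda3 (7.58) were the least. The first place of Gadd45g rested on NaCl/PBS mouse 2, which held most of its mean. In FeSO4/PBS livers the order began with Gadd45g (3250), Cdkn1a (1520) and Gadd45a (1080) and ended with Plk2 (43.9) and Phlda3 (14.1). Among 13819 genes ranked per kb, Cdkn1a thus moved from place 10716 in NaCl/PBS to 1238 in NaCl/DEX and 412 in FeSO4/PBS livers. Ccng1, the third in NaCl/PBS, was the seventh in FeSO4/PBS livers with 139 per kb. Of the summed normalized counts of the 10 members, Cdkn1a made up 1.1% to 1.65% in NaCl/PBS mice and 11.5% to 17% after DEX. It made up 25.7% to 39.9% after FeSO4 and 21.7% to 24.8% after both.

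The members also varied within groups. NaCl/PBS mouse 2 had the highest count of its group for 8 of the 10 members, all but Ccng1 and Plk2. FeSO4/PBS mouse 1, the library that stood apart, was the highest of its group for 5 members (Cdkn1a, Mdm2, Ccng1, Gadd45g and Phlda3) and the lowest for the other 5 (Btg2, Gadd45a, Gadd45b, Plk2 and Trp53inp1). The coefficient of variation among the 3 mice of a group ran from 1.11% for Gadd45b in NaCl/DEX to 105% for Gadd45g in NaCl/PBS.

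Over the 12 libraries, log2 values of Cdkn1a correlated with those of Gadd45g (r = 0.931), Gadd45b (0.921), Mdm2 (0.892), Trp53inp1 (0.818), Btg2 (0.806), Gadd45a (0.624), Phlda3 (0.573), Plk2 (0.18) and Ccng1 (-0.634). These values describe the 12 livers only, which share 4 treatments, so most of each value is the pattern of group means. Trp53inp1 and Gadd45b (0.954), and Btg2 and Gadd45a (0.94), formed the closest pairs. The 5 tested genes outside the list with the highest r to Cdkn1a were Insc (0.9955), Tacc2 (0.993), Ythdf2 (0.986), Mrap (0.986) and Eppk1 (0.983). Mrap, an accessory protein of melanocortin receptors, had mean normalized counts of 472 for NaCl/PBS, 3390 for NaCl/DEX, 10200 for FeSO4/PBS and 9340 for FeSO4/DEX. Tacc2 had 419, 2810, 7480 and 7170 in these groups. Mrap and Tacc2 were picked by their r to Cdkn1a, so a like order of groups follows from that choice. Their changes were smaller than that of Cdkn1a, with LFCs after FeSO4 of 4.43 for Mrap and 4.16 for Tacc2.

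Beyond the 10 members, 37 other p53 targets were listed, of which 34 were tested and Psrc1, Rprm and Trp73 had too few reads. After FeSO4, 14 (41.2%) were higher, 7 (20.6%) lower and 13 not called, with a median LFC of 0.45, against 27.2% and 27.3% of all genes. With library size alone 8 (23.5%) were higher and 10 (29.4%) lower, against 16.5% and 42.1% of all genes. The count of 7 was 4 without NaCl/PBS mouse 3 or FeSO4/PBS mouse 2. The largest rises among the better expressed were those of Apaf1, the core of the apoptosome, from 95.7 ± 25.6 to 232 ± 3.29 normalized counts (SD, n = 3; LFC 1.28, edgeR FDR 7.9e-05), of the lipid transfer protein gene Pltp (LFC 1.10, edgeR FDR 0.0026) and of Sulf2, a sulfatase (LFC 1.09, edgeR FDR 0.00083). Against these, Bbc3, which encodes the proapoptotic protein PUMA, fell from 243, 149 and 143 to 42.3, 58 and 42.1, an LFC of -1.91 (edgeR FDR 3e-04). Polk, a polymerase that copies damaged DNA, fell from 121 ± 9.43 to 28.8 ± 6.77 (SD, n = 3; LFC -2.08, edgeR FDR 3.5e-06). Tap1, a peptide transporter, fell by 1.00 on the log2 scale (edgeR FDR 3.3e-05). Members of the same target list thus moved in both directions.

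**Figure D4:**
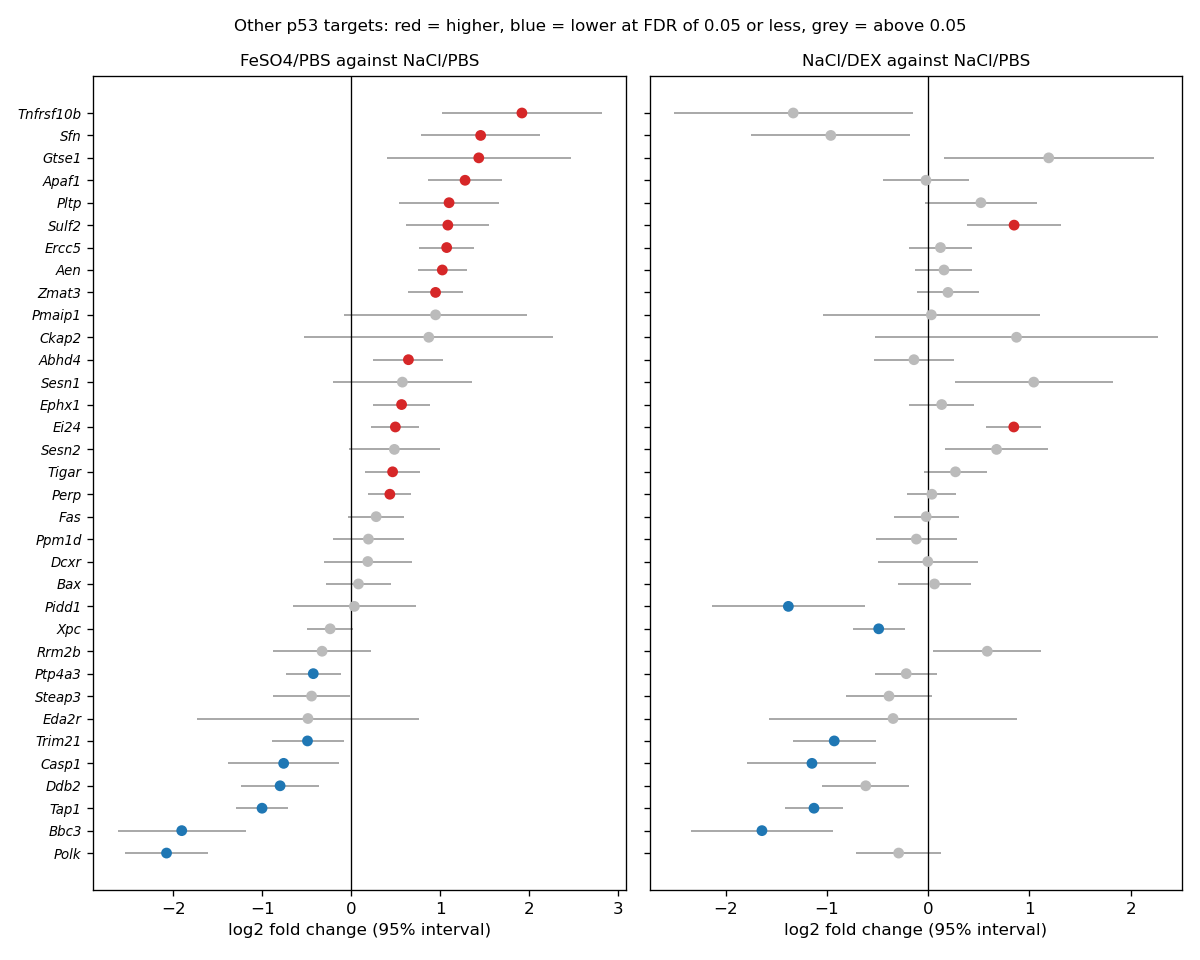
LFC of the 34 tested p53 targets outside the 10 members. The x axis is the log2 fold change with its 95% interval, in FeSO4/PBS against NaCl/PBS mice on the left and in NaCl/DEX against NaCl/PBS mice on the right, and both panels share their controls. Genes are ordered by the left panel, and red and blue mark an edgeR FDR of 0.05 or less. There are 14 red and 7 blue points on the left, where Polk (-2.08) and Bbc3 (-1.91) are lowest, and 2 red and 6 blue on the right.

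After DEX in NaCl mice 2 of these 34 targets (5.88%) were higher and 6 (17.6%) lower, against 6.5% and 7.15% of all genes, with a median LFC of -0.01. Sulf2 (LFC 0.85, edgeR FDR 0.018) and Ei24, an autophagy gene (LFC 0.85, edgeR FDR 0.00044), rose. Bbc3 fell to 75.1, 52.7 and 44.3 (LFC -1.64, edgeR FDR 0.0039), as did Pidd1, a death domain gene (LFC -1.38, edgeR FDR 0.018), and Casp1, the inflammasome protease (LFC -1.15, edgeR FDR 0.019). The count of 2 was 5 in a fit of these 6 libraries alone, 6 without a filter on low counts and 1 to 4 with single mice left out, and the count of 6 was 3 without NaCl/PBS mouse 3. In FeSO4/DEX against NaCl/DEX mice 11 (32.4%) were higher and 2 (5.88%) lower, against 22.4% and 20.9% of all genes. Pidd1 (LFC 1.89, edgeR FDR 0.00067), Apaf1 (0.95, edgeR FDR 0.0014) and Ercc5 (0.82, edgeR FDR 0.00043) were in front, and Polk (-2.34, edgeR FDR 3.3e-06) and Rrm2b (-0.76, edgeR FDR 0.027) were lower. In FeSO4 mice edgeR called 0 of the 34 after DEX, against 0% of all genes. The DEX responses differed for Pidd1 (1.85, edgeR FDR 0.035), Tap1 (1.31, edgeR FDR 0.0013) and Ei24 (-0.66, edgeR FDR 0.042), though with single mice left out the 2 higher were 1 to 2 and the 1 lower was 0 to 2. The shares called higher and lower were 5.88% and 2.94%, against 2.99% and 3.2% of all genes.

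Trp53 itself had 309, 337 and 322 normalized counts in NaCl/PBS mice and 255, 335 and 304 after DEX. After FeSO4 it had 538, 289 and 292, and with DEX added 356, 344 and 253. FeSO4/PBS mouse 1 lay above every control, and the other FeSO4/PBS mice lay below them. The LFC after FeSO4 was 0.22 (95% interval -0.25 to 0.68, edgeR FDR 0.42), and it turned to -0.145 (edgeR FDR 0.47) without mouse 1 and to -0.113 (edgeR FDR 0.66) with library size alone. These are mRNA levels and say nothing of p53 protein. Mdm4 fell after FeSO4, from 1220, 950 and 1130 to 657, 602 and 726, with an LFC of -0.74 (SE 0.14, edgeR FDR 0.00058), while its paralog Mdm2 rose. After DEX in NaCl mice the Mdm4 LFC was 0.08 (edgeR FDR 0.76). Trp73, a paralog of Trp53, had 0 or 1 reads in every library.

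Of 25 genes for p53 and its regulators, 23 were tested, and Cdkn2a and Trp63 were not. After FeSO4 11 (47.8%) were higher and 7 (30.4%) lower, with a median LFC of 0.22, against 27.2% and 27.3% of all genes. With library size alone 4 (17.4%) were higher and 10 (43.5%) lower, against 16.5% and 42.1% of all genes, so the share of higher genes was then near that of all genes. Chek1, a DNA damage checkpoint kinase, rose from 14.8 ± 5.06 to 81.4 ± 30.2 (SD, n = 3; LFC 2.45, edgeR FDR 0.00044), Setd7, a lysine methyltransferase, by an LFC of 1.77 (edgeR FDR 0.00018) and Rchy1, a ubiquitin ligase for p53, by 0.92 (edgeR FDR 1.8e-05). Ppp1r13l, which encodes the p53 inhibitor iASPP, fell from 67.6, 64.5 and 74.5 to 6.05, 5.09 and 12.8, an LFC of -3.14 (edgeR FDR 2e-05). Trp53bp1 (LFC -1.44, edgeR FDR 2.5e-06) and the damage kinase gene Atm (-1.37, edgeR FDR 0.0022) fell too. After DEX in NaCl mice 2 (8.7%) were higher and 1 (4.35%) lower, against 6.5% and 7.15% of all genes. The 1 lower was 0 to 2 with single mice left out. Ep300, a histone acetyltransferase (1.01, edgeR FDR 0.00058), and Trp53bp2 (0.91, edgeR FDR 5.3e-05) rose and Trp53bp1 (-0.48, edgeR FDR 0.033) fell. In FeSO4/DEX against NaCl/DEX mice 6 (26.1%) were higher and 8 (34.8%) lower, against 22.4% and 20.9% of all genes. In the interaction Ppp1r13l (2.64, edgeR FDR 0.0093) and Atr (0.76, edgeR FDR 0.024) were higher and Ep300 (-0.99, edgeR FDR 0.017) and Trp53bp2 (-0.82, edgeR FDR 0.0045) lower. That was 8.7% of the list in each direction, against 2.99% and 3.2% of all genes. In FeSO4 mice edgeR called 0 of the 23 after DEX, against 0% of all genes.

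Paralogs of the members were called in both directions. Of 16, 14 were tested, with 6 (42.9%) higher and 4 (28.6%) lower after FeSO4, against 27.2% and 27.3% of all genes, and a median LFC of -0.05. Plk3, a kinase related to Plk2, rose from 411, 1110 and 615 to 5330, 6780 and 5410, an LFC of 3.04 (SE 0.30, edgeR FDR 1.8e-06), where Plk2 had not been called. Btg1, the paralog of Btg2, rose by an LFC of 1.58 (edgeR FDR 3.8e-06) and Tob2 of the same family by 0.71 (edgeR FDR 0.00058), while Tob1 fell (-1.03, edgeR FDR 0.005). Trp53inp2, the paralog of Trp53inp1, fell after FeSO4 (-0.79, edgeR FDR 0.002) and rose after DEX (0.61, edgeR FDR 0.034). Ccng2 rose after DEX (1.31, edgeR FDR 0.0017), where Ccng1 had an LFC of 0.01. After DEX 3 paralogs (21.4%) were higher and 0 (0%) lower, against 6.5% and 7.15% of all genes. With library size alone 1 was higher after DEX, and with single mice left out 1 to 4, with 1 without NaCl/PBS mouse 1 or NaCl/DEX mouse 3. In FeSO4/DEX against NaCl/DEX mice 3 (21.4%) were higher and 4 (28.6%) lower, against 22.4% and 20.9% of all genes. In the interaction Tob2 was lower (-0.88, edgeR FDR 0.014), 7.14% of the list against 3.2% of all genes. After DEX in FeSO4 mice 0 were called, against 0% of all genes.

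CDKN1A acts on cyclins, CDKs and PCNA, and the DREAM complex represses cell cycle genes downstream of it. Of 17 cyclins, CDKs and partners, 2 (11.8%) were higher and 6 (35.3%) lower after FeSO4, with a median LFC of -0.27, against 27.2% and 27.3% of all genes. The 2 higher were 1 to 4 with single mice left out, a count that moved without any of 6 mice, and 1 with library size alone, when 9 were lower. Ccnd1, the main D-type cyclin of the liver, fell from 3970, 3460 and 2560 to 849, 1060 and 977 (LFC -1.79, SE 0.26, edgeR FDR 6e-05). Ccnd2 (-1.38, edgeR FDR 7.1e-05) and Rbl1 (-1.64, edgeR FDR 0.0024) fell as well, and Pcna (0.80, edgeR FDR 0.00013) and Cdk6 (0.32, edgeR FDR 0.044) rose. Ccnd2 was the gene of this list called after DEX in NaCl mice (-0.70, edgeR FDR 0.029), a call lost without any of 5 mice. That was 5.88% of the list lower, against 7.15% of all genes. In FeSO4/DEX against NaCl/DEX mice 3 (17.6%) were higher and 4 (23.5%) lower, against 22.4% and 20.9% of all genes. Of 20 genes repressed by DREAM 19 were tested. After FeSO4 3 (15.8%) were higher and 0 (0%) lower, against 27.2% and 27.3% of all genes, with a median LFC of 0.14. The 0 lower were up to 2 with single mice left out and 2 with library size alone. One of the 3 was Rrm2, a subunit of ribonucleotide reductase, which rose from 78.4, 136 and 134 to 2230, 889 and 902 (LFC 3.54, SE 0.37, edgeR FDR 3.2e-06). Mcm7, of the replicative helicase, also rose (0.67, edgeR FDR 0.0058). After DEX in NaCl mice edgeR called 0 of the 19, against 6.5% of all genes higher and 7.15% lower. In FeSO4/DEX against NaCl/DEX mice 1 (5.26%) was higher and 3 (15.8%) lower, against 22.4% and 20.9% of all genes. With single mice left out the higher were 1 to 4 and the lower 0 to 5. Top2a and Mcm6 of the 3 lower had overlapping groups in which NaCl/DEX mouse 3 was high (Top2a 194 against 33.3 and 71.5). In FeSO4 mice 0 genes of both lists were called after DEX, against 0% of all genes. In the interaction 0 were called, against 2.99% of all genes higher and 3.2% lower.

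Markers of other cell types moved with FeSO4 beside the members. Of all genes, 27.2% were higher and 27.3% lower after FeSO4. Of 10 neutrophil markers 6 were tested and 5 were higher, and their summed normalized counts were 118 to 297 in NaCl/PBS mice, 74.5 to 118 after DEX, 760 to 914 after FeSO4 and 573 to 688 after both. Single neutrophil markers were at 0 in all mice of a group: Mpo in both PBS groups, Ly6g, Ngp and Camp in NaCl/DEX, and Elane in FeSO4/DEX. Macrophage markers were lower in 9 of 10, with sums of 10200 to 11800 in NaCl/PBS and 5770 to 6650 in FeSO4/PBS mice. Of the hepatocyte markers 5 were higher and 1 lower, of 10 endothelial ones 3 and 4, of 10 stellate cell ones 3 and 2, of 7 tested cholangiocyte ones 2 and 1, and of 8 tested lymphocyte ones 0 and 1. Lymphocyte sums were 99.1 to 146 in NaCl/PBS and 101 to 115 in FeSO4/PBS mice, endothelial ones 5960 to 6890 and 5620 to 7280, stellate ones 7000 to 7350 and 8190 to 10900, and cholangiocyte ones 816 to 942 and 1230 to 1510. After DEX in NaCl mice, 1 neutrophil, 0 macrophage and 0 lymphocyte markers were lower, 2 cholangiocyte and 1 stellate cell markers were lower, 1 endothelial marker was higher and 1 lower, and 3 hepatocyte markers were higher. Of all genes, 6.5% were higher and 7.15% lower after DEX. The part of these cell types in the members' changes was not tested.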

How the data were processed

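Livers of 12 mice in 4 groups of 3 were sequenced. According to the methods and labels, the authors made stranded mRNA libraries, sequenced them single-end, checked them with FastQC and mapped them to mm39 with STAR 2.7.10b, which also counted reads per gene. The deposited counts are whole numbers without normalization, 30401 of 55414 genes had none, and 54749 identifiers matched GENCODE vM39 on GRCm39, the same build, which gave symbols, positions and exon lengths. The authors used an earlier annotation release, and ambiguous or multiply mapped reads are not in such counts.

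All 12 libraries entered 1 quasi-likelihood model in edgeR 4.0.16 (R 4.3.3, limma 3.58.1) with a mean per group, edgeR's filter on low counts, TMM factors and Benjamini-Hochberg adjustment over 13857 genes. The study used DESeq2, here the alternative in version 1.42.0. LFCs used a prior count of 0.125, and normalized counts are scaled to the mean effective library size. The biological coefficient of variation was 0.169. The model was also run on simulated counts of 13275 genes, of which 200 were raised by an LFC of 2 in FeSO4/PBS. It called 199 of these, with 12 false calls. Far fewer genes changed there than in the data, and all upward, so this run does not test the scaling. Figures were drawn with matplotlib 3.10.9 in Python 3.11.15, with numpy 2.4.6 and pandas 2.3.3. Precision is limited by the 3 mice of a group more than by depth. The p-values test differences between groups against the spread between mice, which was estimated over all groups together.

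The members and gene lists, and the cell type markers, were chosen with earlier results of these data known. From each list the text names, per comparison, up to 3 genes called with the largest and up to 3 with the smallest LFC among those with a mean of at least 50 normalized counts in the higher group, not always all of them, plus Trp53, Mdm4 and Trp73. Genes like Cdkn1a were the 5 with the highest Pearson r of log2 CPM, without members, Rik and Gm genes. Alternatives were DESeq2, its size factors, library size alone, no filter, a replicate block, a minimum of 10 counts in all libraries, the libraries of a comparison alone, a minimum LFC of 1, and each mouse left out. The other experiments of the study were not analysed here.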

Additional observations from a re-analysis of the deposited data

Results flagged for a closer look

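For 6 members the response to DEX differed between mice given FeSO4 and mice given NaCl, by a test of the difference itself (the interaction in the edgeR model). Of all genes, 2.99% were higher and 3.2% lower in this test. The difference in LFC was -5.44 for Cdkn1a, -3.07 for Gadd45b, -2.87 for Gadd45g and -1.58 for Trp53inp1, whose rise after DEX was smaller in FeSO4 mice. It was 2.09 for Gadd45a and 1.68 for Plk2, which fell after DEX in NaCl mice. The differences of Gadd45g and Trp53inp1 no longer passed the test when any of 9 of the 12 mice was left out. Groups of 3 mice are too small for the outlier test used for larger groups.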

How the results depend on the processing

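Of 990 LFCs of members under alternative settings, 939 kept their direction and their side of the threshold, 26 lost a call, 13 gained one and 12 changed sign. Sign changes concerned LFCs that were not called. For Ccng1 after DEX in NaCl mice the LFC was -0.15 with library size alone, -0.003 with at least 10 counts in every library and -0.002 with the replicate number as a block, and -0.15 to 0.17 with single mice left out. For Trp53 after FeSO4 it was -0.113 with library size alone and -0.145 to 0.374 with single mice left out. Leaving out mice also gave ranges of -0.25 to 0.68 for Btg2 and -1.01 to 0.13 for Phlda3 in the interaction, -0.35 to 0.60 for Phlda3 after DEX in FeSO4 mice, and -0.039 to 0.309 for Trp53inp1 in FeSO4/DEX against NaCl/DEX mice. With single mice left out, the number of members lower after FeSO4 was 0 to 1, and the number lower in the interaction 2 to 4, the lowest without NaCl/PBS mouse 3, NaCl/DEX mouse 1, 2 or 3, FeSO4/PBS mouse 2, or FeSO4/DEX mouse 1 or 2. A minimum LFC of 1 left 0 members lower after FeSO4 and 0 lower in FeSO4/DEX against NaCl/DEX mice, by its construction. Without a filter on low counts 4 members were higher after DEX in FeSO4 mice, beside 99 genes in all. Over all genes, single mice left out gave 3329 to 3815 lower after FeSO4 and 308 to 628 lower in the interaction.

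Over all genes, a minimum LFC of 1 left 1730 higher and 2040 lower after FeSO4 (3770 and 3783 without), 411 and 473 after DEX in NaCl mice (901 and 991), 1474 and 1362 in FeSO4/DEX against NaCl/DEX mice (3103 and 2902) and 277 lower in the interaction (443). Library size alone gave 2285 higher and 5829 lower after FeSO4 and 1776 lower after DEX. In the interaction DESeq2 called 735 genes lower, and the fit without a filter 683 higher and 776 lower. The fit of a comparison's libraries alone was not run for the interaction, which needs all 12.

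Same-numbered mice did not deviate together, with r over 0.1 in 2 of 18 pairs (-0.092 to 0.129) and 5 of 12 libraries closest to one of their own number, so the block fit, which changed no call of a member, rests on a shared number only. Phlda3, with 11 to 64 reads per mouse, is the member that depth limits most.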
